A study of Mus musculus with 23 samples.

Results

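DnaJ proteins, also called Hsp40 or J-domain proteins, are the co-chaperones that bring substrates to Hsp70 and set its cycle going. The members described here are all array probes annotated to 1 gene symbol made of Dnaja, Dnajb or Dnajc and a number. They are 52 of the 36227 probes on the array and stand for 42 genes: 4 of class A (4 probes), 13 of class B (17 probes) and 25 of class C (31 probes). The choice used gene symbols only and no measured value.

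Mouse embryos of day 8.5, from p53 heterozygous parents, were kept for 10 minutes at 43 °C (heat) or 38 °C (control) in a water bath. Embryos sharing genotype and bath were then pooled, 3 to 7 to a pool, and the RNA of whole embryos was measured on 1-colour CodeLink arrays. The groups were p53 -/- (null) heat with 3 pools, null control with 4, p53 +/- (heterozygous) heat with 4, heterozygous control with 4, p53 +/+ (wildtype) heat with 4 and wildtype control with 4, 23 arrays in all, and no 4th null heat pool was analysed here. The labels name neither the p53 allele, nor the litters behind a pool, nor the time from bath to collection. Every p-value therefore rests on how much these pools differ, which may be partly technical. Pools are named A to D as in the labels. No tested probe carries the symbol of the p53 gene itself, so genotype was taken from the labels alone.

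The J domain carries a conserved histidine, proline and aspartate loop that stimulates ATP hydrolysis by Hsp70, which then closes on the substrate; nucleotide exchange factors later let it go. Class A proteins have a J domain at the amino end, a stretch rich in glycine and phenylalanine and a zinc-binding region. Class B proteins lack the zinc-binding region, and class C proteins share little with either beyond the J domain, which may sit anywhere in the chain. Members work in the cytosol, the endoplasmic reticulum (ER), mitochondria, the nucleus and on vesicles, and Dnajb1 and Dnaja1 are known as genes that heat shock factor 1 can switch on.

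Of the 52 probes, 40 could be tested, and they stand for 33 genes: 3 probes of class A, 14 of class B and 23 of class C. A test needed at least 3 values in each of the 6 groups and 3 or more arrays on which the probe exceeded the 40th percentile of that array. The 12 other probes belong to Dnaja4, Dnajb5, Dnajc3, Dnajc6, Dnajc11, Dnajc15, Dnajc22, Dnajc24 and Dnajc28, and to the dimmer probes of Dnajb9, Dnajb13 and Dnajc10. Most were dim and had empty cells on control arrays: Dnaja4 had a value on 11 heat arrays, from 0.472 to 0.911, and on 7 control arrays, from 0.434 to 0.852 relative intensity units. Dnajb5 had values on 11 heat and 2 control arrays. Dnajc3, the ER co-chaperone p58IPK, had no usable value on any heat array and 6 on control arrays, from 0.888 to 1.29. Genes with several probes have their tested probes marked a, b and c from the brightest to the dimmest, and of 6 such genes the probes are described apart.

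Several arrays stood apart, and the values that touch the members are these. Each control column lacks values for 7576 to 11666 probes, whereas no heat column has an empty cell, so bath and the authors' handling of the columns cannot be told apart. Hspa1a, the inducible Hsp70, read 78.7 to 123 in wildtype heat A, C and D and in null heat B, 0.877 to 2.10 in the 7 other heat pools, and 0.496 to 1.04 in the 12 control pools; wildtype heat B, at 0.877, lay within the control range. Components of variation were computed over 18261 tested probes with a value on every array, with the DnaJ probes left out. The first component, 34.6% of the variance, ran from 17.9 to 42.7 in all null control pools, heterozygous control C and D, heterozygous heat D and null heat C, and from -23.8 to -6.3 in the other pools. The second component, 20.1%, was lowest in wildtype heat C and D and heterozygous heat A, from -36.4 to -20.6, and highest in null heat B, at 29.4. Markers of embryonic neural tube, somite, heart, red cells, endothelium and gut were measured on the arrays. Summed yolk sac markers (9 of 9 tested) ran from 112 to 310 in heat pools and from 114 to 259 in control pools, and the 2 tested of 8 trophoblast and decidua markers summed to 14.9 to 18.8 in heat pools and 13.4 to 19.0 in control pools. Their part in the results was not tested. In pooled whole embryos, fewer cells of a type and less RNA per cell cannot be told apart.

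Few DnaJ probes passed the threshold with heat. In null embryos 3 of 40 probes rose and 0 fell (7.5%, beside 5.53% of all 21979 probes tested, 2.88% higher and 2.64% lower): both probes of Dnajb6 and the brightest probe of Dnajc5, by 0.56 to 0.65 on the log2 scale. In wildtype embryos 0 of 40 passed (3.08% of all probes), and 6 had an unadjusted p under 0.05 by limma, as did 17.8% of all probes. In heterozygous embryos 0 of 40 passed (2.31% of all probes), with 4 at an unadjusted p under 0.05 by limma, as were 15.7% of all probes. The mean heat difference over the 3 genotypes, which draws on 11 heat and 12 control pools, was past the threshold for 6 of 40 (15%, beside 12.2% of all probes, 5.18% higher and 6.99% lower). Dnajb6 a, Dnajb6 b, Dnajb12 and Dnajc5 a rose, and Dnajc17 and Dnajc21 fell. In null embryos 8 of 40 had an unadjusted p under 0.05 by limma (25.9% of all probes). In the mean over genotypes it was 11 of 40 (25.5% of all probes). The threshold throughout is an adjusted p under 0.05, by limma with Benjamini-Hochberg adjustment over all probes.

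The share of calls among the members was thus near that of the array, and the 3 classes lay close together. In the mean over genotypes, class A had 0 of 3 probes past the threshold with 0 of 3 at an unadjusted p under 0.05 by limma, class B had 3 of 14 (all higher) and class C had 3 of 23 (1 higher, 2 lower). The median log2 difference was -0.05 in class A, 0.01 in class B and 0.02 in class C, beside 0.00 over all probes. The median over the 40 members was 0.01 and became -0.03 with arrays centred on their medians and -0.06 with the values as deposited, where the medians of all probes were -0.03 and -0.06. The split of 4 higher and 2 lower also turned, to 2 higher and 4 lower with centred arrays and to 2 higher and 5 lower as deposited. The shares of all probes called under these settings are not set beside that split, so it is no result about the members in particular. In null embryos the class B median was 0.14 (10 of 14 positive), the class C median 0.03 and the class A median -0.04, and the difference between classes was not tested.

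**Figure D1:**
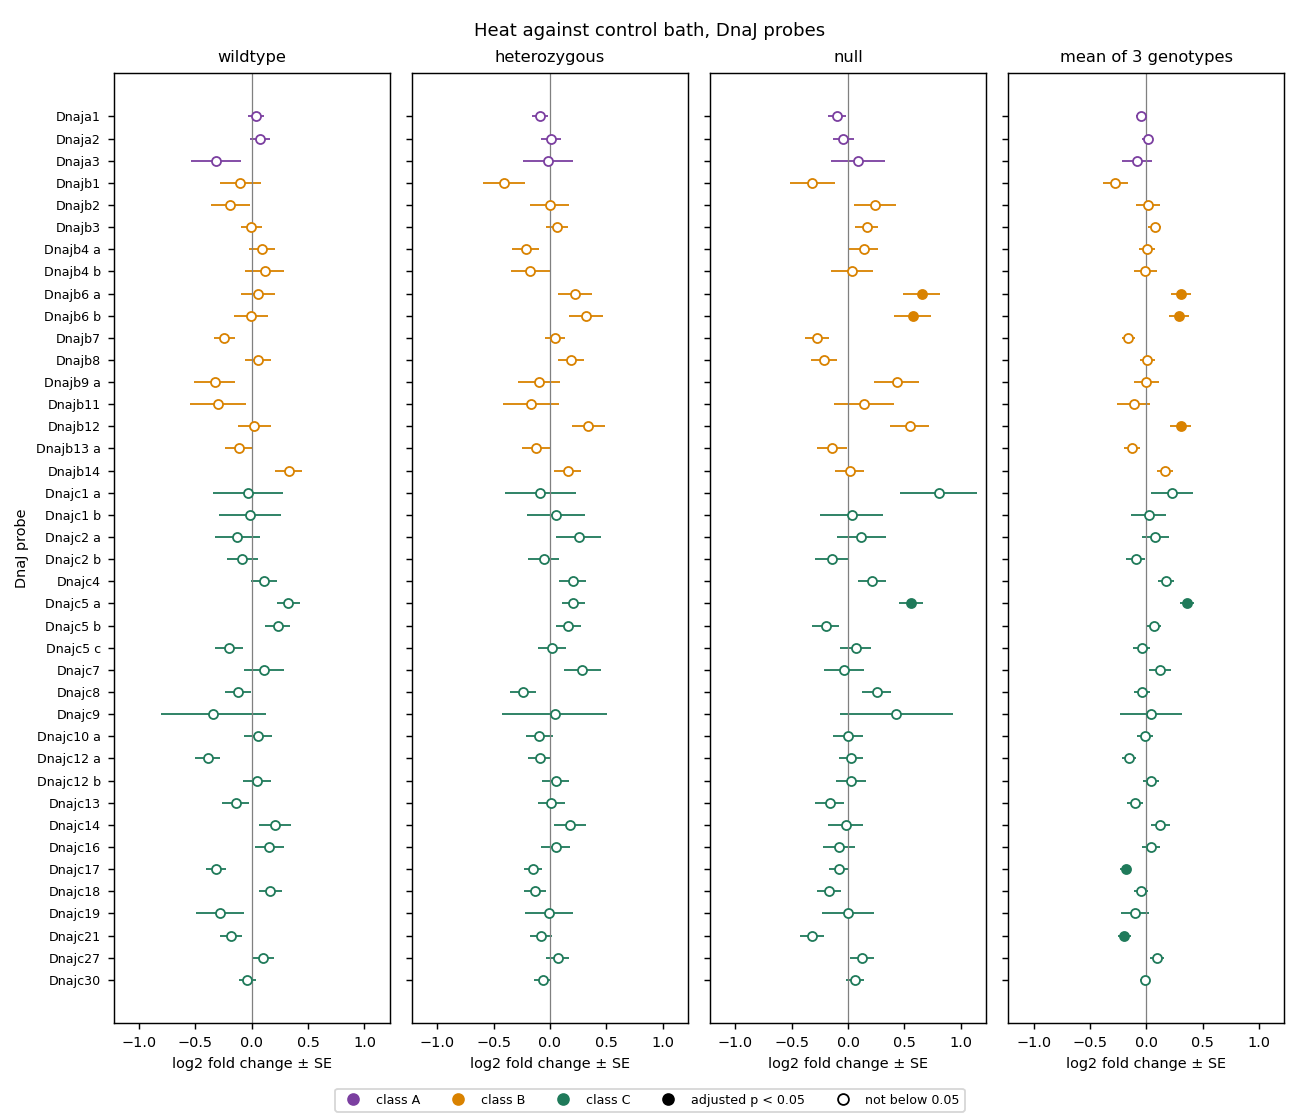
Log2 fold change of heat over control bath (x axis, with its SE) for each of the 40 tested DnaJ probes (y axis), in wildtype, heterozygous and null embryos and as the mean of the 3 genotypes; colour gives the class and filled points passed the threshold. Filled points appear in the null panel at Dnajb6 a, Dnajb6 b and Dnajc5 a and in the mean panel at 6 probes, and none in the wildtype and heterozygous panels.

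Dnajb6, a class B protein that keeps aggregation-prone proteins soluble and is needed for the mouse placenta to form, was the class B gene with the largest rise in null embryos and in the mean over genotypes, where Dnajb12 came close. Dnajb6 a read 40.5, 56.2 and 50.5 in null heat pools A to C, against 32.3, 28.6, 31.0 and 31.9 in null control pools A to D. Each null heat pool lay above every null control pool, and null heat B, a pool with high Hspa1a, was the highest. That order came with the quantile normalization: as deposited, Dnajb6 a read 38.6, 48.2 and 54.8 in null heat A to C, with C highest. The difference was 0.65 ± 0.16 (log2, SE, adjusted p = 0.0249). Dnajb6 b, a separate probe to the same gene, read 18.3, 26.1 and 19.5 in null heat pools and 14.8, 12.1, 14.6 and 15.3 in null control pools, again with no overlap and with null heat B highest. Its difference was 0.57 ± 0.16 (adjusted p = 0.0423). Null heat pools lay wholly above null control pools for 6 of 40 members (9.43% of all probes) and wholly below for 2 (13.9%). In wildtype embryos these counts were 1 above (7.41% of all probes) and 3 below (5.82%), and in heterozygous embryos 0 above (4.01%) and 2 below (5.32%).

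In the other genotypes the Dnajb6 groups overlapped. Dnajb6 a read 42.0, 42.1, 29.4 and 31.8 in wildtype heat pools, against 37.3, 35.0, 34.4 and 31.1 in wildtype control pools, a difference of 0.06 ± 0.15. Wildtype heat A and B were above the controls and C and D were not, and Dnajb6 b, at 21.5, 18.6, 13.8 and 13.6, likewise had A and B above C and D. In heterozygous embryos Dnajb6 a read 35.0, 43.0, 46.7 and 46.5 in heat pools and 35.1, 52.0, 30.6 and 31.7 in control pools (0.22 ± 0.15). Over the 3 genotypes Dnajb6 a rose by 0.31 ± 0.09 (adjusted p = 0.0244) and Dnajb6 b by 0.29 ± 0.09 (adjusted p = 0.0327), and without wildtype heat B, the pool with control-like Hspa1a, Dnajb6 b stood at 0.28 (adjusted p = 0.0566). Both mean calls were lost with arrays centred on their medians (0.22 and 0.21, adjusted p = 0.0655 and 0.121 for a and b), with values as deposited (0.19 for both, adjusted p = 0.207 and 0.295) and with the first component in the fit (0.28 and 0.24, adjusted p = 0.0707 and 0.115). The heat difference in null minus that in wildtype embryos was 0.59 ± 0.22 for Dnajb6 a and 0.58 ± 0.22 for Dnajb6 b, neither past the threshold. The rise in null embryos missed the threshold for both probes with arrays centred on their medians (0.44 and 0.52, adjusted p = 0.062 and 0.059) and with the first component in the fit (0.59 and 0.46, adjusted p = 0.0805 and 0.163), and as deposited (0.52 and 0.60, adjusted p = 0.0887 and 0.0947). Dnajb6 b also missed it with the second component in the fit (0.31, adjusted p = 0.0893) and with only the arrays compared (0.57, adjusted p = 0.0631).

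**Figure D2:**
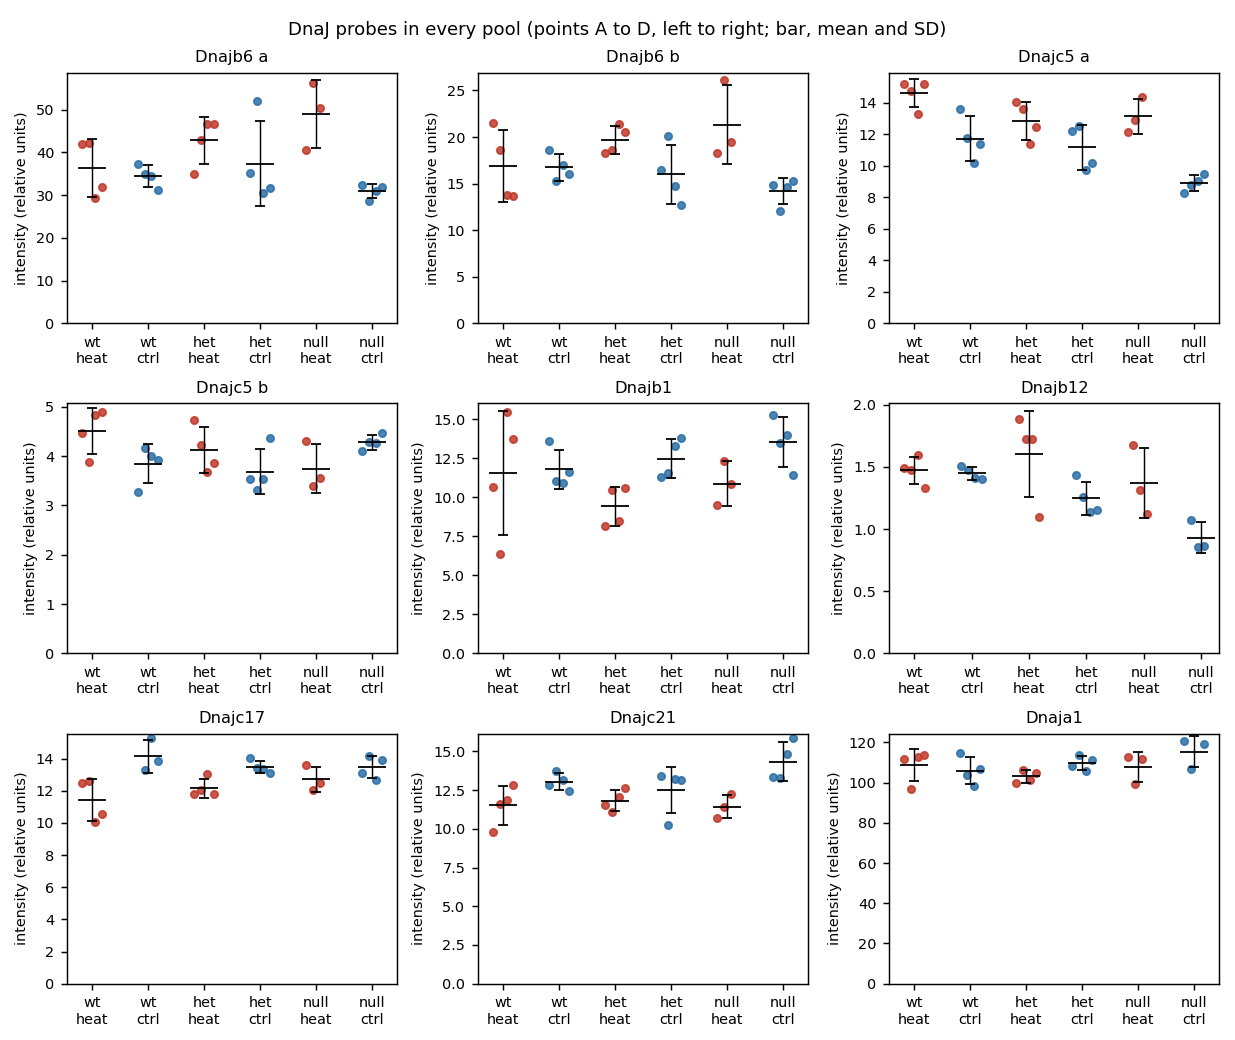
Normalised intensity (y axis, relative units) of 9 DnaJ probes in every pool of the 6 groups (x axis; heat in red left of control in blue for each genotype; points are pools A to D, bars the mean and SD). Dnajb6 a, Dnajb6 b and Dnajc5 a separate null heat from null control pools, Dnajb1 does not stand higher in any heat group as a whole, and Dnaja1 stays between 96.7 and 121.

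The upstream sequence of Dnajb6 is shown with that of Dnajb1 because heat shock factors bind repeats of a short unit, and these are the member that rose on 2 probes and the member best known as a heat shock gene. RefSeq windows from 250 bases before to 50 after each gene's start (build GRCm38.p6) were found for 35 of the 42 genes, 48 windows in all. The element of 3 units, GAA, TTC and GAA with 2 free bases (N) between units, was searched on both strands and was in 0.603% of the 32851 windows of all genes and in 2 member windows, both of Dnajb6 and both holding the same site. It begins 46 bases before the nearer start and overlaps a match to each element of 2 units, GAANNTTC and TTCNNGAA. Those shorter elements were in 7.86% and 8.52% of all windows, the one in windows of Dnaja1, Dnaja4, Dnajb6 and Dnajc27 and the other in windows of Dnajb4, Dnajb6 and Dnajc10. Capitals mark the match in Dnajb6, at chr5:29735648-29735947 on the plus strand. Of the 2 Dnajb1 windows neither holds a match to these letters, and the one printed, at chr8:83607925-83608224 on the plus strand, has no capitals.
Dnajb6: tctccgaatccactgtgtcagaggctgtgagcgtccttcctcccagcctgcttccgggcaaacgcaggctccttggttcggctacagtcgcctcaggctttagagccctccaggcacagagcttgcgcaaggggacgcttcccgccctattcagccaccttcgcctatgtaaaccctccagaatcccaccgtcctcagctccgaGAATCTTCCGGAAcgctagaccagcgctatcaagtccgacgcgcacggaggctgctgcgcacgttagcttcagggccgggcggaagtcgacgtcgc
Dnajb1: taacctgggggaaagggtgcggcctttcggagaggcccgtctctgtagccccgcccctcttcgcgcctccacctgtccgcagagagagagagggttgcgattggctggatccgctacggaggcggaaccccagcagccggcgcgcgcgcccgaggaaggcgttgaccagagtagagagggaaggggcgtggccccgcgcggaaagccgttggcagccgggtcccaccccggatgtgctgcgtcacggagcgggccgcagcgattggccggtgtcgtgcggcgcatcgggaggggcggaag
A match describes letters in the window and is no evidence of binding, and the motifs were chosen with the results known.

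Dnajb1, the cytosolic partner of Hsp70 that gave the family the name Hsp40, did not pass the threshold in either direction. It read 10.7, 6.37, 15.5 and 13.7 in wildtype heat pools A to D, against 13.6, 11.05, 10.9 and 11.6 in wildtype control pools. Wildtype heat C and D lay above every wildtype control pool, and A and B lay below all of them. The difference was -0.10 ± 0.19, and without wildtype heat B, the pool with control-like Hspa1a, it was 0.16, neither near the threshold. Heterozygous heat pools read 8.18, 10.4, 8.49 and 10.6, against 11.3, 11.6, 13.3 and 13.8 in heterozygous control pools (-0.41 ± 0.19, adjusted p = 0.282). Every heterozygous heat pool lay below every heterozygous control pool. Null heat pools read 9.48, 12.3 and 10.8, against 15.3, 13.5, 14.0 and 11.5 in null control pools, with overlap (-0.32 ± 0.20, adjusted p = 0.313). The 3 highest heat values, in wildtype heat C and D and null heat B, came from pools with high Hspa1a, while wildtype heat A, also high in Hspa1a, read 10.7. The 7 other heat pools read 6.37 to 10.8 and the control pools 10.9 to 15.3, and the part of Hspa1a level in the result was not tested.

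Over the 3 genotypes Dnajb1 differed by -0.28 ± 0.11 (95% interval -0.50 to -0.05, adjusted p = 0.111). This became a fall with arrays centred on their medians (-0.33, adjusted p = 0.0484), with the values as deposited (-0.36, adjusted p = 0.049) and without wildtype heat C and D and heterozygous heat A (-0.39, adjusted p = 0.00701). In the same fit Hspa1a differed by 3.23 ± 0.70 (adjusted p = 0.00339) and Hspa1b, its near-identical neighbour, from which its probe may not be told apart, by 1.77 ± 0.48 (adjusted p = 0.0174). Both means rest largely on wildtype heat A, C and D and null heat B, where Hspa1b read 93.5 to 125. Hspa1b read 4.17 to 5.85 in the other heat pools and 3.76 to 5.75 in control pools.

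No class A transcript passed the threshold with heat, and the intervals were narrow for Dnaja1 and Dnaja2 and wide for Dnaja3. Dnaja1, the farnesylated cytosolic co-chaperone, ran from 96.7 to 114 in 11 heat pools (median 106) and from 98.5 to 121 in 11 control pools (median 108), with broad overlap. Its mean heat difference was -0.05 ± 0.04 (95% interval -0.14 to 0.04), and it fell with arrays centred on their medians (-0.19, adjusted p = 0.0409) and with values as deposited (-0.22, adjusted p = 0.034). Dnaja2, its cytosolic relative, ran from 22.1 to 29.6 in heat pools (median 25.02) and from 22.6 to 28.0 in control pools (median 24.9), a mean difference of 0.01 ± 0.05 (95% interval -0.10 to 0.12). Dnaja3, the mitochondrial member Tid1, ran from 0.725 to 2.14 in heat pools (median 1.30) and from 1.07 to 1.81 in control pools (median 1.31). The 2 lowest Dnaja3 values were those of wildtype heat C and D, and the mean difference was -0.08 ± 0.13 (95% interval -0.35 to 0.19), with -0.31 ± 0.22 in wildtype embryos (95% interval -0.77 to 0.14).

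The other cytosolic class B members gave no call with heat. Dnajb4, close to Dnajb1 in sequence, read 14.6 to 20.5 on probe a in wildtype heat pools, with C and D high at 20.5 and 19.6, against 15.3 to 18.8 in wildtype control pools. Heterozygous heat pools read 13.8 to 14.7 and heterozygous control pools 13.6 to 19.7, and the mean difference over genotypes was 0.00 ± 0.07. Probe b had C and D high in the same way, at 7.57 and 6.60, beside 4.25 and 3.43 in wildtype heat A and B, and a mean difference of -0.01 ± 0.10. Dnajb2, a neuronal member that guides clients to the proteasome, differed by 0.02 ± 0.10. Dnajb7 differed by -0.16 ± 0.06 (adjusted p = 0.0706) and the brighter probe of Dnajb13, a component of ciliary and sperm axonemes, by -0.13 ± 0.07.

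Among ER members, Dnajb12, which sits in the ER membrane with its J domain facing the cytosol, rose in the mean over genotypes by 0.30 ± 0.09 (adjusted p = 0.0304). It ran from 1.10 to 1.88 in 11 heat pools (median 1.49) and from 0.856 to 1.505 in 11 control pools (median 1.26). Null heat pools read 1.68, 1.32 and 1.12, all above the null control values of 1.07, 0.856 and 0.864, with null control D empty; wildtype heat pools read 1.33 to 1.60 beside 1.405 to 1.505 in wildtype control pools. The call was lost with the first component in the fit (0.17, adjusted p = 0.125) and without wildtype heat C and D and heterozygous heat A (0.28, adjusted p = 0.0657).

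The luminal partners of the ER Hsp70 gave no call with heat. Dnajb11 (ERdj3) ran from 8.57 to 24.97 in heat pools and from 16.5 to 23.3 in control pools, and its lowest values were wildtype heat D at 8.57, heterozygous heat A at 10.7 and wildtype heat C at 10.9. Its mean difference was -0.11 ± 0.15. Dnajb9 a (ERdj4), a gene of the unfolded protein response, differed by 0.00 ± 0.11 in the mean, made of -0.33 ± 0.18 in wildtype, -0.10 ± 0.18 in heterozygous and 0.43 ± 0.20 in null embryos. Dnajc10 a, the ER reductase ERdj5, differed by -0.01 ± 0.07, and Dnajc1 a, an ER membrane member, by 0.23 ± 0.19. The Dnajc1 a mean is made of -0.03 ± 0.31 in wildtype, -0.08 ± 0.31 in heterozygous and 0.80 ± 0.34 in null embryos (adjusted p = 0.142). Dnajc1 a read 1.55, 1.38 and 0.854 in null heat pools, all above the null control pools, whose values are given with the genotype comparison. The second probe, Dnajc1 b, differed by 0.03 ± 0.28 in null embryos, with overlap, and by 0.02 ± 0.16 in the mean. In the same mean comparison, of 21 tested genes on a list of 24 ER stress genes, 6 fell and 0 rose (beside the 6.99% of all probes that fell). They include Hspa5, the ER Hsp70 itself (-0.36 ± 0.07, adjusted p = 0.0025), Sdf2l1, an ER protein that works with Dnajb11 (-0.50 ± 0.05, adjusted p = 1.77e-06), Creld2 (-0.37 ± 0.06) and the disulfide isomerase Pdia4 (-0.36 ± 0.08).

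The Dnajb11 window is shown because it is the member window with the ER stress element ERSE-II (ATTGG and CCACG with 1 free base between, both strands searched), which 0.0365% of all windows hold. It lies at chr16:22857595-22857894 on the plus strand (RefSeq, GRCm38.p6), and capitals mark the match, which begins at base 8 after the start.
Dnajb11: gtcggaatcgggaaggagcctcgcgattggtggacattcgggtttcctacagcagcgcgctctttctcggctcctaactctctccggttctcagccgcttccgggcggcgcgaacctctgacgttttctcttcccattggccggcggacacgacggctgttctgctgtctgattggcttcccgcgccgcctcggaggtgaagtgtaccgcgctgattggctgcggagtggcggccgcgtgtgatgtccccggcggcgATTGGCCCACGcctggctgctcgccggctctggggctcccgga
The longer element ERSE, CCAAT and CCACG with 9 free bases between, was in 0.119% of all windows and in that of Dnajc3, which could not be tested. The element TGACGTGG was in 0.676% of all windows and in no member window.

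In class C, Dnajc5 had the firmest heat difference of all members. It encodes cysteine string protein, which guards vesicle fusion proteins at nerve endings and is also made outside neurons. Dnajc5 a read 12.1, 12.9 and 14.3 in null heat pools, against 8.29, 8.80, 9.04 and 9.45 in null control pools. The groups did not overlap, and the difference was 0.56 ± 0.11 (adjusted p = 0.00685). In wildtype embryos it read 15.2, 14.7, 13.3 and 15.2 in heat pools and 13.6, 11.8, 10.1 and 11.4 in control pools, where only wildtype heat C fell below the highest control pool (0.32 ± 0.10, adjusted p = 0.0851). In heterozygous embryos it read 14.0, 13.6, 11.3 and 12.5 in heat pools and 12.2, 12.5, 9.70 and 10.2 in control pools, with overlap (0.21 ± 0.10). Over the 3 genotypes it rose by 0.36 ± 0.06 (adjusted p = 3.13e-04), and both calls held under every alternative and with any single pool left out.

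The other probes of Dnajc5 did not show the rise in null embryos or in the mean over genotypes. Dnajc5 b read 4.30, 3.39 and 3.55 in null heat pools and 4.10, 4.28, 4.28 and 4.46 in null control pools, a difference of -0.20 ± 0.12, and 0.06 ± 0.07 in the mean over genotypes. In wildtype embryos Dnajc5 b differed by 0.23 ± 0.11 (adjusted p = 0.277) and in heterozygous embryos by 0.16 ± 0.11, beside 0.32 and 0.21 for probe a. Dnajc5 c differed by -0.20 ± 0.13 in wildtype and 0.02 ± 0.13 in heterozygous embryos, and by -0.04 ± 0.07 in the mean (95% interval -0.19 to 0.11). In the mean, the interval of probe a, 0.24 to 0.49, does not meet that of either other probe, so the probes of this gene disagree there. Which transcripts each one detects was not examined.

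Dnajc17 and Dnajc21 fell in the mean over genotypes. Dnajc17, a nuclear member tied to splicing, read 12.4, 12.6, 10.0 and 10.5 in wildtype heat pools, against 13.3, 15.3 and 13.9 in wildtype control B to D, with A empty. Wildtype and heterozygous heat pools lay below all their own controls, and null heat pools overlapped theirs. The mean difference was -0.18 ± 0.05 (adjusted p = 0.019), and it missed the threshold without wildtype heat C and D and heterozygous heat A (-0.13, adjusted p = 0.0752). Dnajc21, whose yeast counterpart Jjj1 acts in maturation of the large ribosomal subunit, read 10.7, 11.4 and 12.2 in null heat pools, against 13.3, 13.3, 14.9 and 15.8 in null control pools, with no overlap. Its mean difference was -0.20 ± 0.06 (adjusted p = 0.028), and it missed the threshold with the first component in the fit (-0.12, adjusted p = 0.153).

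Other class C members gave no call with heat. The brightest probe of Dnajc2, a ribosome-bound member, differed by 0.08 ± 0.12 in the mean and its second probe by -0.10 ± 0.08. Dnajc7, which hands clients between Hsp70 and Hsp90, differed by 0.12 ± 0.10, and Dnajc8, found with the spliceosome, by -0.04 ± 0.07. Dnajc19, part of the mitochondrial import motor, differed by -0.10 ± 0.13, and Dnajc4 by 0.17 ± 0.07. Dnajc12 a, a partner of aromatic amino acid hydroxylases, read 4.59, 5.23, 5.95 and 5.39 in wildtype heat pools and 6.47, 7.38 and 6.91 in wildtype control pools with a value, a difference of -0.39 ± 0.11 that missed the threshold (adjusted p = 0.0553), although the groups did not overlap. Its groups overlapped in the other genotypes, where the differences were -0.09 ± 0.10 (heterozygous) and 0.03 ± 0.11 (null). The second probe of this gene, Dnajc12 b, differed by 0.05 ± 0.12 in wildtype embryos, with overlap, and by 0.04 ± 0.07 in the mean.

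The p53 genotype was compared within each bath. In the control bath 4 of 40 probes differed between null and wildtype embryos (10%, beside 8.36% of all probes, 3.68% higher and 4.69% lower): Dnajb12, Dnajc1 a and Dnajc5 a were lower in null pools and Dnajc18 higher. Dnajc1 a read 0.835, 0.771, 0.665 and 0.559 in null control pools, against 1.93, 1.23, 1.58 and 1.34 in wildtype control pools, a gap of -1.10 ± 0.31 (adjusted p = 0.0351). Its null control values lie within the range of the dim probe Dnaja4, 0.434 to 0.911, as do those of Dnajb12 in null control B and C. Dnajb12 and Dnajc5 a, with the null and wildtype values given above, differed by -0.65 ± 0.16 (adjusted p = 0.0219) and -0.39 ± 0.10 (adjusted p = 0.0246). Dnajc18, an ER membrane member, read 8.51, 9.47, 8.59 and 10.4 in null and 7.88, 6.74, 6.75 and 7.52 in wildtype control pools (0.36 ± 0.10, adjusted p = 0.0344). None of these 4 overlapped between the groups; over all members null pools lay wholly above for 1 (14.2% of all probes) and wholly below for 4 (11.8%). The null control pools serve this comparison and the heat comparison in null embryos, so the opposite signs of Dnajb12 and Dnajc5 a in them rest on shared arrays.

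The null and wildtype control pools also lie apart on the first component, 17.9 to 42.7 beside -16.0 to -8.7. The component was computed from these same arrays. In this comparison it and genotype cannot be told apart, so calls lost with it in the fit decide nothing between them. With that component in the fit, 0 of 40 members passed by limma and 9 of all 21979 probes did, and the 4 differences were -0.29 (Dnajb12), -0.05 (Dnajc1 a), -0.30 (Dnajc5 a) and 0.17 (Dnajc18). In the other groups the component split pools of 1 genotype, and Dnajc1 a was low where it was high. In heterozygous control pools Dnajc1 a read 1.59 and 1.93 in pools A and B and 0.743 and 0.690 in pools C and D. It read 0.569 in heterozygous heat D, beside 1.13 to 1.49 in heterozygous heat A to C, and in null heat it was lowest in pool C, where the component was high. The second probe of Dnajc1 read 0.931, 0.674, 0.900 and 0.581 in null and 0.722, 0.408 and 0.582 in wildtype control pools (0.45 ± 0.28), so the probes of this gene differed in sign.

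**Figure D3:**
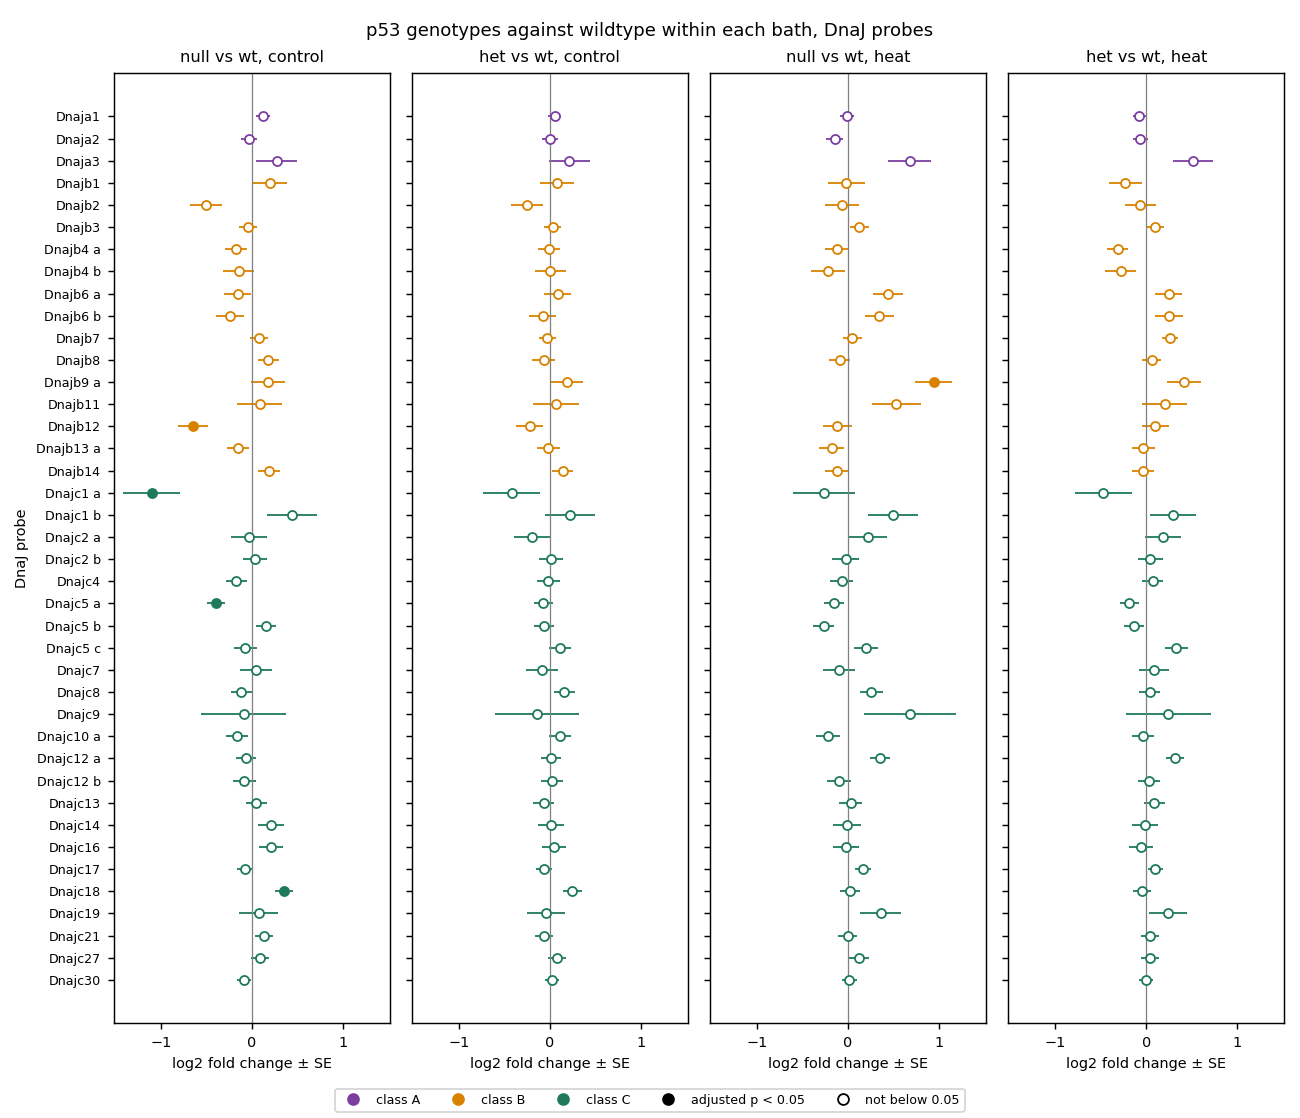
Log2 fold change (x axis, with its SE) of null over wildtype and heterozygous over wildtype embryos in the control bath and in the heat bath, for the 40 tested DnaJ probes (y axis); colour gives the class and filled points passed the threshold. The null over wildtype panel of the control bath has 4 filled points, that of the heat bath has Dnajb9 a, and the heterozygous panels have none.

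Other genotype comparisons gave 1 call. In the heat bath Dnajb9 a read 1.27, 1.65 and 1.43 in null pools, against 1.10, 0.762, 0.634 and 0.601 in wildtype pools, without overlap (0.94 ± 0.20, adjusted p = 0.0325). That is 1 of 40 members (2.5%, beside 0.56% of all probes, 0.255% higher). The Dnajb9 a values of wildtype heat B to D also lie within the range of the dim probe Dnaja4. The lowest values are wildtype heat C and D, and without these and heterozygous heat A the difference was 0.65 (adjusted p = 0.176); with the second component in the fit it was 0.48 (adjusted p = 0.319). Heterozygous against wildtype gave 0 of 40 in the control bath (0.00455% of all probes) and 0 of 40 in the heat bath (0.141%). At an unadjusted p under 0.05 by limma these counts were 1 (5.92% of all probes) and 6 (11.7%). Null against heterozygous gave 0 of 40 in the control bath (0.0455%) and 0 of 40 in the heat bath (0.00455%), with 6 (18.2% of all probes) and 2 (4.51%) at an unadjusted p under 0.05 by limma.

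The heat difference itself was compared between genotypes. By limma 0 of 40 members passed for null minus wildtype (1.01% of all probes), and 8 had an unadjusted p under 0.05, as did 22.1% of all probes, with a median of 0.05 beside -0.04 over all probes. For heterozygous minus wildtype 0 of 40 passed (0% of all probes), with 2 at an unadjusted p under 0.05 by limma (6.02% of all probes). Dnajc5 a gave 0.24 ± 0.15 for null minus wildtype (95% interval -0.07 to 0.55), Dnajb9 a 0.76 ± 0.27 (adjusted p = 0.137) and Dnajb12 0.52 ± 0.23 (adjusted p = 0.189).

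Pools of the same group differed most for Dnajc9, a co-chaperone that handles histones H3 and H4, described because its spread was seen to be large. Its SD within groups was 0.74 on the log2 scale, the 99.6th percentile of all probes, where the median was 0.17 for members and 0.19 for all probes. It read 21.4, 18.9, 3.72 and 2.99 in wildtype heat pools A to D, against 13.2, 10.1, 9.45 and 9.15 in wildtype control pools. Wildtype heat A and B were the highest of all 23 pools and C and D the lowest, and heterozygous heat A, at 5.09, was next. The mean heat difference of 0.04 ± 0.28 covers this split.

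Some further members were also low in wildtype heat C and D, and others were high. In wildtype heat C and D, Dnajc19 read 14.3 and 12.7 beside 30.7 and 28.6 in A and B, and Dnajc2 a read 8.33 and 6.64 beside 14.6 and 13.7. Dnajb4 and Dnajb1, as given above, were higher in C and D than in A and B. Over the 31 members with a value on every array, wildtype heat D held the lowest value for 5 (16.1%, beside 6.97% of all probes), wildtype heat B for 4 (12.9%, beside 4.5%) and wildtype heat C for 2 (6.45%, beside 6.39%). Null heat B held the highest value for 5 (16.1%, beside 6.52% of all probes), and wildtype heat C and D each for 4 (12.9%, beside 7.02% and 6.43%). The members that varied least within groups were Dnaja1 (SD 0.08), Dnajc30, a mitochondrial member (0.09), and Dnajc17 (0.10).

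**Figure D4:**
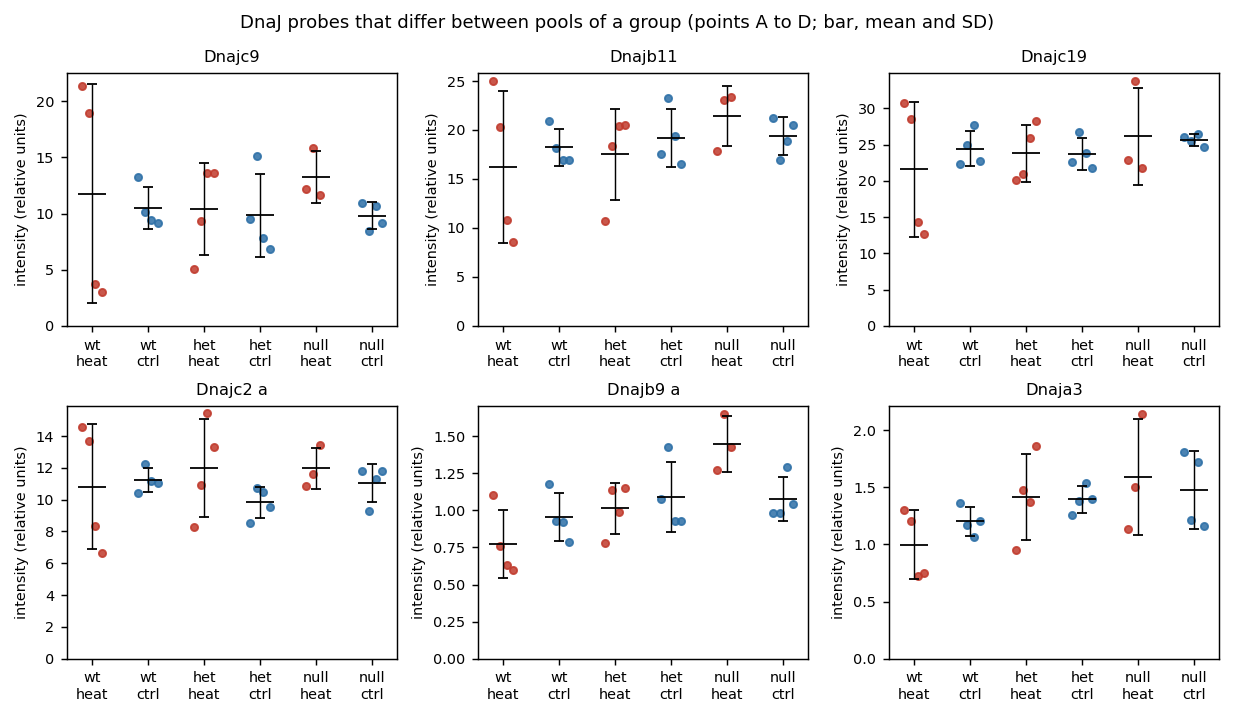
Normalised intensity (y axis, relative units) of 6 DnaJ probes in every pool (x axis; heat in red left of control in blue for each genotype; points are pools A to D, bars the mean and SD). In the wildtype heat group of Dnajc9, Dnajb11, Dnajc19, Dnajc2 a and Dnaja3, pools C and D sit below A and B, most widely for Dnajc9 at 3.72 and 2.99 beside 21.4 and 18.9.

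**Figure D5:**
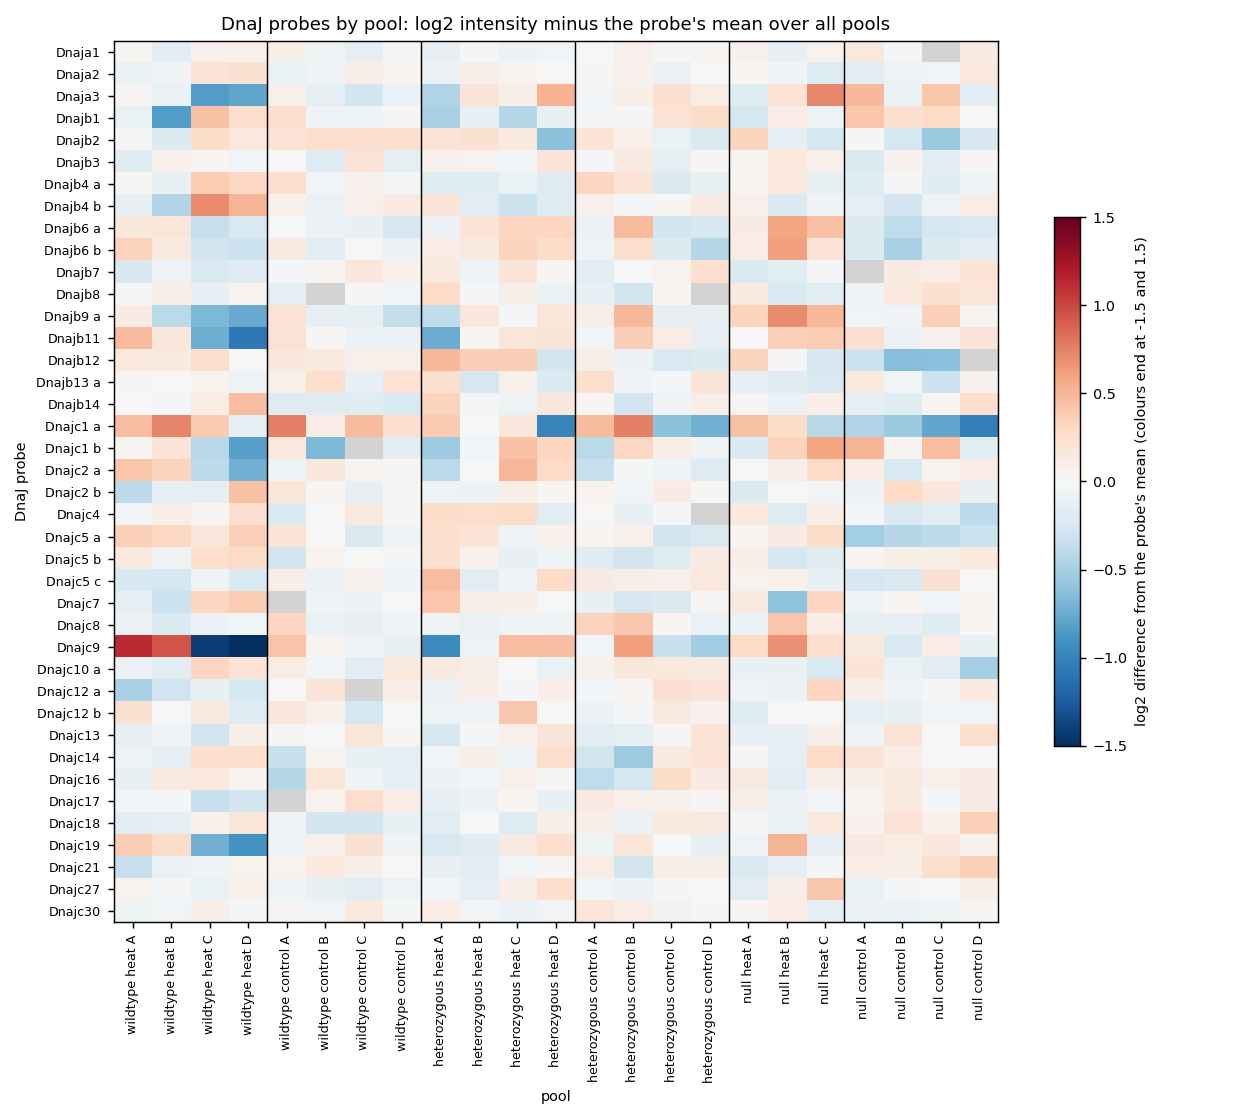
Log2 intensity of each tested DnaJ probe (rows) in each pool (columns, heat left of control for each genotype) minus the mean of that probe over all pools; red is higher, blue lower, grey a missing value. The darkest cells are Dnajc9 in the wildtype heat pools, and no column is red or blue for all members.

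The partners of DnaJ proteins were set beside them in the mean heat comparison. Of 15 listed Hsp70 and Hsp110 genes 10 were tested, and 2 rose (Hspa1a and Hspa1b) and 1 fell (Hspa5). Taken by genotype, 2 of these 10 rose with heat in wildtype embryos, 0 in heterozygous and 0 in null embryos. Hsph1, an Hsp110, differed by 0.43 ± 0.15 in the mean (adjusted p = 0.0586). Of 8 tested nucleotide exchange factors 0 passed by limma, and Bag3 alone had an unadjusted p under 0.05 (0.0467). Of 14 tested genes of Hsp90 and its co-chaperones Hsp90aa1, the inducible Hsp90, rose by 0.43 ± 0.05 (adjusted p = 4.43e-06) and Ahsa2 fell by 0.35 (SE 0.09, adjusted p = 0.0164). Hsbp1, which binds heat shock factor 1, rose by 0.28 ± 0.05 (adjusted p = 0.00125). Of 4 tested J-domain genes with names outside the Dnaj series 0 passed by limma, with unadjusted p of at least 0.14. In null against wildtype control embryos 1 of 10 tested Hsp70 and Hsp110 genes and 1 of 14 Hsp90 genes were lower and 0 higher, in the comparison where 9 of 21979 probes passed with the first component in the fit. The ER Hsp110 Hyou1 differed by -1.81 ± 0.45 (adjusted p = 0.0216) and the mitochondrial Hsp90 Trap1 by -1.03 ± 0.31 (adjusted p = 0.0412).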

How the data were processed

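The authors deposited 1 table of linear intensities from 1-colour CodeLink arrays. How background, normalization and spot filters were handled before deposit is not given in the sources used here. Empty cells and the code -9999 were set to missing, and each array was floored at the 5th percentile of its values above 0. Values were put on the log2 scale and quantile normalized to a target from the 18702 probes measured on every array, other cells being interpolated. The floored log2 values without this normalization, called values as deposited here, were tried beside it. In R 4.3.3, limma 3.58.1 (lmFit, eBayes with trend) fitted 6 group means over 23 arrays; p-values were adjusted by Benjamini-Hochberg over 21979 probes in each of 12 comparisons. Samples were grouped by their labels, and all table columns were matched to a sample. Symbols came from the platform annotation, and all 52 matched RefSeq by gene ID; Dnajc25 has no probe of its own symbol. The fit was tested on simulated data.

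Members, gene lists and motifs were chosen with earlier results of these data known. Named members are those past the threshold in any comparison, 17 genes listed for their roles and the brightest member of each class. Those with the 3 largest and 3 smallest mean heat differences of each class were named too. Dnajc9, Dnajc30 and the second probes of Dnajc1 and Dnajc12 were added after their values were seen. Alternatives were another normalization, filter, floor, set of arrays, a replicate block, array weights and leaving out each pool; the components and the 3 left-out heat pools were added after seeing the data. The number of arrays limits the precision.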

Additional observations from a re-analysis of the deposited data

Results flagged for a closer look

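In 7 of 138 sets of 4 pools of the named members, a pool lay far from the 3 others by Dixon's criterion, where chance gives about 1 in 20. Dnaja1 was 96.7 in wildtype heat B, beside 112 to 114 in the other wildtype heat pools. In heterozygous heat D, Dnajb2 was 0.581 beside 0.988 to 1.05 and Dnajc4 was 4.78 beside 6.46 to 6.53 in the other heterozygous heat pools. Dnajb4 a was 14.7 in heterozygous heat C, beside 13.8 to 13.9, a small gap in a tight group. Dnajc5 c was 0.993 in wildtype heat C, beside 0.859 to 0.882. In control pools, Dnajc8 was 53.4 in wildtype control A, beside 39.3 to 41.2, and Dnajc21 was 10.3 in heterozygous control B, beside 13.2 to 13.4. Before quantile normalization Dnajc8 read 45.5 in wildtype control A and 40.2, 43.3 and 45.8 in B to D. Its pool A therefore stood apart only after normalization. The cause was not tested.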

How the results depend on the processing

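Of 718 values of single members under the alternatives, 620 kept their side of the threshold, 92 lost it and 6 gained it. No called value changed sign. The 718 include the heat comparisons of Dnaja1 and Dnajb1, which were not called and so could not lose a call. Most of the 718 come from leaving out 1 pool, where the fits share nearly all arrays, so the tally is no measure of how firm the calls are. Dnajc5 a kept both its heat calls under every alternative. The count of DnaJ probes past the threshold moved as follows. The share of all probes called under the same setting is not printed beside these counts, nor beside those with a pool left out. A moved count is therefore no result about the members in particular. For heat in wildtype embryos (0) it was 2 with arrays centred on their medians, 3 as deposited, 1 with the replicate block, 3 with array weights, 2 with the first component, 3 with the second and 2 without wildtype heat C and D and heterozygous heat A; in heterozygous embryos (0) it was 2 with the second component. For heat in null embryos (3) it was 1 with centred arrays, as deposited and with the first component. For null against wildtype it was, in the control bath (4), 1 as deposited and 0 with the first component, and in the heat bath (1), 5 as deposited and 0 with only the arrays compared, array weights, the second component or the 3 heat pools left out. For the mean over genotypes (6) it was 6 with centred arrays, 7 as deposited, 4 with the first component and 7 with the second; Dnajb6 a, Dnajb6 b, Dnajb12 and Dnajc21 were lost with the first component. For the heat difference in null minus wildtype (0) it was 1 with the first component. As deposited, the median of all probes was -0.12 for heat in wildtype and 0.14 for null against wildtype in the heat bath; centred, it was -0.11 for heat in null embryos.

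Leaving out each pool gave 0 to 1 for heat in wildtype (1 without wildtype heat A, B or C or null heat C), 0 to 1 in heterozygous (heterozygous heat D), 1 to 4 in null (1 without null control B or C or null heat B) and 3 to 8 in the mean (3 without heterozygous control D). For null against wildtype it gave 0 to 5 in the control bath (0 without wildtype control B or D or null control B or C, 1 without null control D, 2 without wildtype control A or C) and 0 to 2 in the heat bath (0 without wildtype heat C or D or null heat B or C, 2 without null heat A). It gave 0 to 1 for null against heterozygous in the control bath (1 without heterozygous control C) and 0 to 0 in the 5 other comparisons. Dnajb6 a with heat in null embryos was lost without null control B or C or null heat B, and Dnajb6 b without wildtype control C or D, any null control pool, heterozygous heat B or null heat B. In the mean, Dnajb6 a was lost without null heat B, Dnajb6 b without any of 9 pools, Dnajb12 without any of 8 and Dnajc21 without heterozygous control D, null control D, wildtype heat A, heterozygous heat B or null heat A. In the control bath, 4 pools each ended the call of Dnajb12, 7 that of Dnajc1 a and 6 each those of Dnajc5 a and Dnajc18, all of them null or wildtype control pools. Dnajb9 a lost its call without wildtype heat C or D or null heat B or C.

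Little pairing by letter was seen. Deviations of pools of the same letter correlated at a median of 0.08 (-0.357 to 0.68, 55 pairs). Those of different letters had a median of -0.04 (-0.676 to 0.712, 165 pairs), and 7 of 23 pools matched their own letter best. With the replicate block Dnajb6 b in null embryos stood at 0.54 (adjusted p = 0.0607), the 1 named call it ended. Array weights used the gene-by-gene method, since the default did not converge. The cause of these changes was not tested.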
